A study of Mus musculus with 8 samples.

Results

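Axon and vessel guidance genes code for the ligands and receptors by which growing axons and blood vessels are steered: semaphorins and plexins, ephrins and Eph receptors, Slits and Robo receptors, netrins and Unc5 receptors, and Flrt adhesion proteins. The members described here are all genes of the authors' deposited table whose symbol begins with Sema, Plxn, Efna, Efnb, Robo, Slit, Unc5, Ntn or Flrt, or with Epha or Ephb and a digit. This rule took 23 of 2386 genes, and all 23 were protein-coding genes of the families named. It used the symbol and no measured value. The table itself, however, holds only genes that had already passed limits on p and fold change.

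Messenger RNA of liver macrophages was profiled in C57BL/6 mice, a common inbred strain, with 4 libraries from animals on normal diet (ND) and 4 from animals on western diet (WD). No genetic change or other treatment is given in the labels, nor are age, time on diet, diet composition or the way the macrophages were isolated. The data are 1 comparison made by the authors, written WDV against NDV, and it was taken here to be WD against ND. What the V stands for is not given. Values and depths of single libraries were not analysed here, so a mean count over all libraries, a log2 fold change (WD over ND) and its standard error (SE) stand for each gene, and overlap between groups cannot be described. A gene is called when the adjusted p of the authors' deposited table is below 0.05; since every listed gene had a log2 fold change beyond 1 in size, the estimate of each called gene is a difference of more than 2-fold, though its 95% interval may reach below that.

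Guidance signalling works mostly between neighbouring cells. Semaphorins signal through plexins, alone or with neuropilins as co-receptors, and usually make a cell retract its edge. Ephrins and Eph receptors both sit in membranes and signal in both directions, and ephrin-B2 on arteries with EphB4 on veins is the classic boundary of the vascular bed. Slits act through Robo receptors and netrins through Dcc and Unc5 receptors, while Robo4 is a Robo receptor of endothelium. In liver, the capillaries are lined by sinusoidal endothelial cells that lie beside resident macrophages, and several guidance genes are known from endothelium as well as from neurons.

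At least 1 gene fell under western diet in 8 of the 9 guidance families, and 2 semaphorins rose. Of 71 genes that make up the 9 families, 20 fell, 2 rose (Sema4d and Sema7a), 1 was listed without passing (Robo2) and 48 were not in the authors' deposited table. The 20 lower genes are 28.2% of the families, beside 8.35% of the 17531 genes given an adjusted p by the authors. That number was recovered from the adjusted p-values of the authors' deposited table, and these genes are called the tested genes here. Outside it lie 77 listed genes, none of them a member, that had a p but no adjusted p. A count of families with at least 1 lower gene grows with family size, so it is no measure of excess. Among the 8 families, the Eph receptors had 1 of 14 genes lower (7.14%), near the 8.35% of tested genes. The 2 higher genes are 2.82% of the families, beside 3.0% of tested genes, so the share that rose was near the background. How many of the 71 were among the tested genes is unknown, so these shares count any untested gene as not called. Among listed genes of the authors' deposited table the shares called lower and higher were 61.4% and 22.0%, against which the 23 listed members cannot be read as support, because listing already required a difference. Why a family gene is missing from the table, through the limit on p, the limit on fold change or lack of reads, cannot be told. The 20 lower members had a median log2 fold change of -2.33, and all 1464 called lower genes of the authors' deposited table had a median of -2.10.

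In the same comparison all 16 of a list of endothelial markers fell (log2 fold changes from -4.12 to -1.49) and 5 of 7 T and NK cell markers rose (1.20 to 1.66) in the authors' deposited table, and their part in the results was not tested. In bulk samples such as these, fewer cells of a type and less RNA per cell cannot be told apart.

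**Figure D1:**
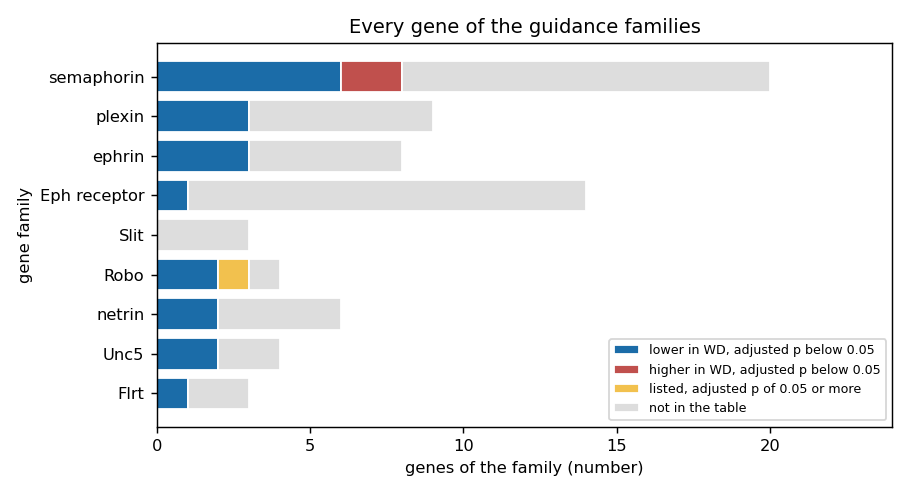
Number of genes in each guidance family (horizontal axis) by family (vertical axis), divided into those lower in WD, higher in WD, listed without an adjusted p below 0.05, and not in the table. Lower genes appear in 8 of the 9 families, higher genes among the semaphorins alone, and no Slit gene is listed.

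Promoter sequence is shown for 6 members because their results turn on ligand and receptor pairs or on extreme precision. They are Ephb4 with its ligand gene Efnb2 (both lower), Plxnc1 with its ligand gene Sema7a (opposite directions), Plxnd1 (the smallest p) and Robo4 (a large SE). They were chosen after the values were seen. Each is the 250 bases before a RefSeq transcription start on GRCm38.p6, the assembly of which mm10 is the browser name, read 5′ to 3′ on the gene's strand. Capitals mark AGGAAG, an ETS factor core, and GGGCGG, the GC box, each searched on both strands, so that their reverse complements are in capitals too. In order, the stretches lie at chr5:137349859-137350108 (plus strand), chr8:8661243-8661492 (minus), chr10:94944846-94945095 (minus), chr9:57939862-57940111 (plus), chr6:115995006-115995255 (minus) and chr9:37401722-37401971 (plus).
Ephb4: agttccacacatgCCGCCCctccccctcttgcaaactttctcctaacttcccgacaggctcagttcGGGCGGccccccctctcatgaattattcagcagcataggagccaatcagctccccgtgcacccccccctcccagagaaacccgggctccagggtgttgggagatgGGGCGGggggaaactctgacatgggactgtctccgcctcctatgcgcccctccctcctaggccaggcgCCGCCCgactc
Efnb2: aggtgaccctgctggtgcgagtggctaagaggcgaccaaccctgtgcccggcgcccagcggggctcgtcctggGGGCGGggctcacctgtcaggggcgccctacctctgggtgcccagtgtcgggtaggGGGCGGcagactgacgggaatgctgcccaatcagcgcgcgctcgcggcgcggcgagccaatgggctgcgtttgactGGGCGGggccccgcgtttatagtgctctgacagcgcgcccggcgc
Plxnc1: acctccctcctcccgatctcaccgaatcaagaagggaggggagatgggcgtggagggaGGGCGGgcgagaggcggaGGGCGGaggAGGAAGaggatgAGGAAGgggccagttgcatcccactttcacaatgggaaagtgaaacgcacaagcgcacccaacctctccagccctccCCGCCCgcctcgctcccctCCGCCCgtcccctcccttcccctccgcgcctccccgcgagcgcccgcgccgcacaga
Sema7a: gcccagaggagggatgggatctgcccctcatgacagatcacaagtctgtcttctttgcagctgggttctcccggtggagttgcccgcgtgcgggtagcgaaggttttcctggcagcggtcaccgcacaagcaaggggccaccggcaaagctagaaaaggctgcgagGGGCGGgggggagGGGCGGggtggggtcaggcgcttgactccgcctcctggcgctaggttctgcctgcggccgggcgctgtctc
Plxnd1: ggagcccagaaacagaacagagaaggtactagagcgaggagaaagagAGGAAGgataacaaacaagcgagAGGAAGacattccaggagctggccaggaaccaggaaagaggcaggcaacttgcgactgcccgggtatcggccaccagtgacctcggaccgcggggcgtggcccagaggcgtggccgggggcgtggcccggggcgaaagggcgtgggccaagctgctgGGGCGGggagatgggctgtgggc
Robo4: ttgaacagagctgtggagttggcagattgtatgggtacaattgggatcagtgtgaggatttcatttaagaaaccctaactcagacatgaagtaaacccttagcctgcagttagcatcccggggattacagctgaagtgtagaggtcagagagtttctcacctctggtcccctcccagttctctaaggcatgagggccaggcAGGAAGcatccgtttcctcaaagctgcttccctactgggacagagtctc

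The 6 stretches differ in base composition. The Efnb2 stretch is 72.0% G and C with 27 CpG steps and 3 GC boxes, and the Ephb4 stretch is 64.0% with 12 CpG steps and 4 GC boxes. The Robo4 stretch stands apart, at 49.6% G and C with 2 CpG steps, no GC box and 1 ETS core. Plxnc1 and Plxnd1 each hold 2 ETS cores, and the Sema7a stretch, of a gene that rose, holds 2 GC boxes and no ETS core. RefSeq windows were matched by symbol for 19 of the 23 members, the others being Flrt1, Ntn1, Sema3f and Sema6a. The 16 called lower genes with a window had 20 windows between them, and 12 of the 16 genes held a GC box in at least 1. By window, GC boxes were in 75.0% of the 20, beside 32.7% of all 32851 RefSeq windows, whose median G and C content was also lower (52.4% against 64.4%). The ETS core was in 35.0% of the 20 windows and in 29.5% of all. For the other motifs searched on both strands, ACAATG (SOX) and TGGGAA (RBPJ) were each in 10.0% of the 20 windows beside 10.7% and 21.6% of all, and AGATAA, the core of sites for GATA factors, was in none beside 9.99%. A match in such a window is a description of its letters and says nothing of binding.

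Of 8 ephrin genes 3 fell (37.5%) and of 14 Eph receptor genes 1 fell (7.14%), beside 8.35% of tested genes. The Eph receptor share was thus near that background, and the other ephrin genes were not listed. Ephb4, the receptor tyrosine kinase of venous endothelium (chromosome 5, 137350109 to 137378669, mm10), had a mean normalized count of 762 and was 10.8-fold lower in the authors' deposited table (log2 fold change -3.43 ± 0.24 SE, adjusted p 4.34e-42). Efnb2, its membrane-bound ligand of arterial endothelium (chromosome 8, 8617434 to 8661242), had a mean count of 331 and was 4.03-fold lower (-2.01 ± 0.17, adjusted p 1.16e-28) in the authors' deposited table. Efnb1, another transmembrane ephrin that can bind EphB receptors (chromosome X, 99136130 to 99148991), was 5.59-fold lower at a mean count of 214 in the authors' deposited table (-2.48 ± 0.22). The 95% interval of Ephb4, from -3.91 to -2.95, lay below that of Efnb2, from -2.35 to -1.67, in values computed from the authors' deposited table. The difference between these 2 genes could not be tested, because they come from the same libraries and their covariance is unknown. Efna1, a GPI-anchored ligand of EphA receptors (chromosome 3, 89271733 to 89281142), was 9.33-fold lower in the authors' deposited table (-3.22 ± 0.24, adjusted p 7.11e-40), at a mean count of 161. Its family neighbours Efna3 and Efna4, whose genes lie 32.8 kb and 52.2 kb away on the same chromosome, were not listed. No EphA receptor was in the table, and of 14 Eph receptor genes 13 were not listed.

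Of 20 semaphorin genes 6 fell, among them transmembrane class 6 genes and 2 secreted ones, and 12 were not listed. Sema6a, a transmembrane ligand of A-type plexins (chromosome 18, 47235598 to 47368870), was 10.0-fold lower at a mean count of 497 in the authors' deposited table (-3.33 ± 0.22, adjusted p 4.13e-49). Sema6b (chromosome 17, 56123085 to 56140343) was 3.96-fold lower at a mean count of 291 in the authors' deposited table (-1.98 ± 0.23). Sema6c, with the lowest mean count of the members (chromosome 3, 95160457 to 95174024), stood at a mean count of 7.38, and its log2 fold change of -2.02 carried an SE of 0.71 (adjusted p 0.0179) in the authors' deposited table. All but 1 of the 4 class 6 genes thus fell, and Sema6d was not listed. Sema3f, a secreted ligand that acts through neuropilin-2 (chromosome 9, 107681500 to 107710475), was 5.90-fold lower in the authors' deposited table (-2.56 ± 0.21, adjusted p 3.12e-31), at a mean count of 598. Its neighbour Sema3b, 72.3 kb away, was not listed. Sema3d, another secreted class 3 semaphorin (chromosome 5, 12383385 to 12588948), was 4.54-fold lower at a mean count of 52.9 in the authors' deposited table (-2.18 ± 0.25).

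Among class 4 and class 7 semaphorins the direction was mixed. Sema4d, a membrane semaphorin of T cells and other leukocytes that binds plexin-B1 and CD72 (chromosome 13, 51685529 to 51793747), was 2.14-fold higher in the authors' deposited table (1.10 ± 0.13, adjusted p 4.14e-15). Its mean count was 2407. Sema7a, a GPI-anchored semaphorin that binds plexin-C1 and beta-1 integrins (chromosome 9, 57940112 to 57962865), was 2.25-fold higher in the authors' deposited table (1.17 ± 0.18, adjusted p 9.88e-10), at a mean count of 265. Sema4c, a transmembrane ligand of plexin-B2 (chromosome 1, 36548639 to 36558349), was 2.12-fold lower in the authors' deposited table (-1.08 ± 0.27, adjusted p 0.000444), at a mean count of 588. These 3 lay nearest to the table's fold limit, with Robo2 next. The 95% intervals of Sema4d (0.84 to 1.36) and Sema7a (0.82 to 1.52) both reached below a 2-fold rise, as computed from the authors' deposited table. Exons of Sema4c share 334 bases, 7.27% of their length, with D430040D24Rik, a transcript on the other strand. It had a log2 fold change of -1.98 in the authors' deposited table. Reads within the shared bases cannot be told apart if counting ignored strand. In the authors' enrichment of genes with a positive fold change, the GO term axon guidance held 6 genes, Sema4d and Sema7a among them, at 2.71-fold enrichment with a Benjamini p of 0.532 in the authors' deposited table. Sema7a was also 1 of 41 genes under inflammatory response (9.22-fold, Benjamini p 2.94e-23) in the authors' deposited table.

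Of 9 plexins, the main semaphorin receptors, 3 were listed and fell (33.3%, beside 8.35% of tested genes), by 2.82-fold to 3.60-fold. Plxnd1, a plexin of vascular endothelium known as the receptor of Sema3e (chromosome 6, 115954811 to 115995005), was 2.82-fold lower at a mean count of 2769 in the authors' deposited table (-1.50 ± 0.077, adjusted p 1.60e-79). Its p-value ranked 3 among all 17531 tested genes, although its fold change was the smallest of the 3 plexins. Plxnc1, the Sema7a receptor that also serves leukocytes (chromosome 10, 94790866 to 94944835), was 3.60-fold lower in the authors' deposited table (-1.85 ± 0.12, adjusted p 2.40e-49), at a mean count of 2655. Plxna2, a receptor of class 6 semaphorins (chromosome 1, 194618218 to 194816869), was 3.50-fold lower in the authors' deposited table (-1.81 ± 0.25), at a mean count of 298. The other 6 plexins, including Plxnb1 and Plxnb2, the receptors of Sema4d and Sema4c, were not listed. Per kilobase of annotated exon, mean counts computed from the authors' deposited table were 379 for Plxnd1, 318 for Plxnc1 and 17.3 for Plxna2. On the same per-kilobase scale the next highest members were Sema4d at 313, Robo4 at 244, Ntn4 at 215 and Ephb4 at 164, and the lowest was Robo2 at 0.778.

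Robo receptors were lower without a listed Slit. Robo4, the endothelial Robo (chromosome 9, 37401897 to 37415115), was 8.60-fold lower at a mean count of 1294 in the authors' deposited table (-3.10 ± 0.41, adjusted p 1.13e-12). Robo1, a Slit receptor of neurons and other cells (chromosome 16, 72308306 to 73046095), was 6.78-fold lower at a mean count of 73.1 in the authors' deposited table (-2.76 ± 0.34). Robo2, a Slit receptor gene on the same chromosome (73891839 to 74411825), stood at -1.19 ± 0.60 with an adjusted p of 0.124 and a mean count of 13.2 in the authors' deposited table, and was not called. Robo3, which lies 0.554 kb from Robo4, and the ligand genes Slit1, Slit2 and Slit3 were not listed.

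Of 6 netrin genes 2 fell, and of 4 Unc5 receptor genes 2 fell. Ntn3, Ntn5, Ntng1, Ntng2, Unc5c and Unc5d were not listed, nor were Flrt2 and Flrt3. Ntn4, a netrin of basement membranes that binds laminins (chromosome 10, 93640681 to 93747207), was 8.01-fold lower at a mean count of 805 in the authors' deposited table (-3.00 ± 0.24, adjusted p 1.00e-34). Ntn1, the classical secreted netrin (chromosome 11, 68209364 to 68400823), was 3.61-fold lower in the authors' deposited table (-1.85 ± 0.38, adjusted p 1.45e-05), at a mean count of 67.4. Unc5a (chromosome 13, 54949411 to 55006018) was 5.62-fold lower in the authors' deposited table (-2.49 ± 0.23) and Unc5b, the Unc5 receptor known from vessels (chromosome 10, 60762593 to 60831581), 3.09-fold (-1.63 ± 0.28), at mean counts of 85.0 and 42.3. Flrt1, a leucine-rich repeat adhesion protein whose family binds latrophilins and Unc5 receptors (chromosome 19, 7092001 to 7105729), had the largest fall of the 23, 12.1-fold, at a mean count of only 14.3 in the authors' deposited table (-3.60 ± 0.58). Its 95% interval, from -4.73 to -2.46, held the values of Ephb4, Sema6a, Efna1, Robo4, Ntn4, Robo1, Sema3f, Unc5a and Efnb1, so the order of the largest falls is not settled.

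**Figure D2:**
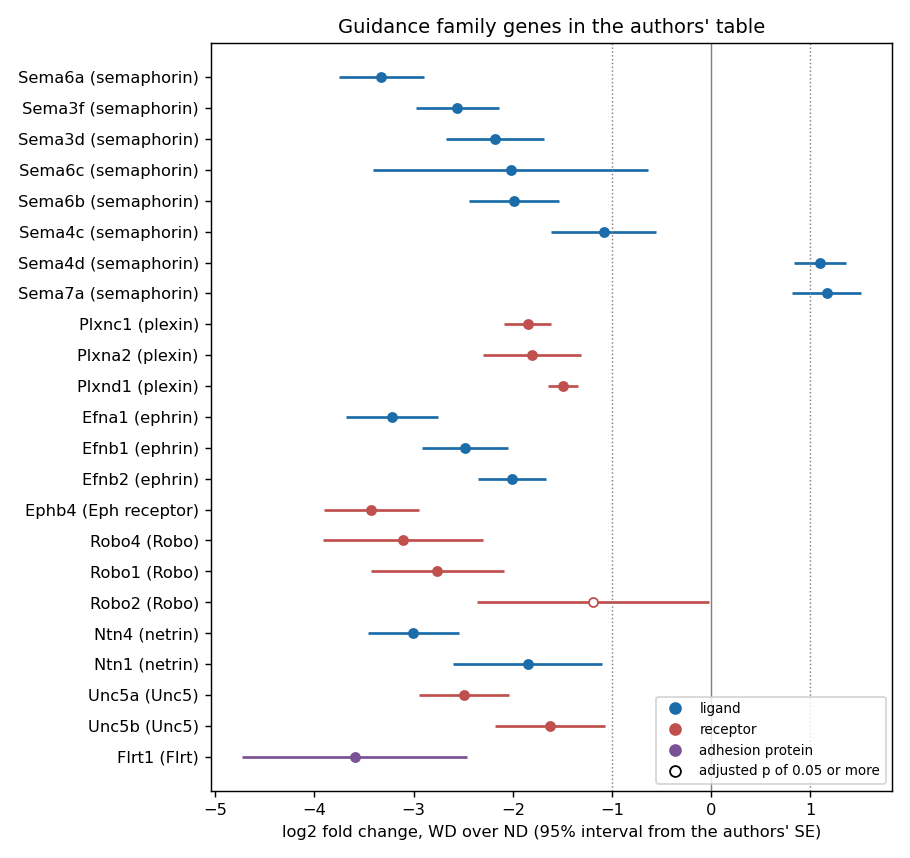
Log2 fold change, WD over ND, of the 23 members (horizontal axis) by gene and family (vertical axis), with 95% intervals from the authors' SE. Dotted lines mark 2-fold changes. Sema4d and Sema7a lie to the right of 0 and the other 21 to the left, and the open symbol is Robo2, which was not called.

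Textbook ligand and receptor pairs were set side by side, with the pairs chosen after the values were seen. Of 15 pairs, 8 had both genes called. In 7 of these both genes were lower: Ephb4 with Efnb2 and with Efnb1, Plxna2 with Sema6a and with Sema6b, Plxnd1 with Sema3d, and Ntn1 with Unc5a and with Unc5b. These pairs share genes and are not independent, and since 20 of the 23 members were lower, most pairs of called members are lower in both genes whatever the pairing. The remaining pair ran in opposite directions, since Sema7a stood at 1.17 ± 0.18 and its receptor gene Plxnc1 at -1.85 ± 0.12 in the authors' deposited table. In the other 7 pairs 1 or both genes were not called, such as Sema4d with Plxnb1 and Efna1 with Epha2.

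Members differed widely in mean count, and the SE was mostly smaller at higher counts. Mean counts ran from 7.38 (Sema6c) to 2769 (Plxnd1) in the authors' deposited table, with a median of 291 beside 37.5 for all listed genes. The 3 members under a mean count of 20 had SEs from 0.58 to 0.71, and the 14 above 200 had SEs from 0.077 to 0.41, in the authors' deposited table. Plxnd1 had a smaller SE than each of 62 listed lower genes with a mean count within 2-fold of its own, whose median SE was 0.22 in the authors' deposited table. Robo4 had a larger SE, 0.41, than 91.9% of 124 such genes, with a median of 0.21, in the authors' deposited table. Of 146 genes of the authors' deposited table with a mean count of at least 1000, 21 had an SE above 0.35, and the next smaller SE was 0.28. Robo4 was the only member among the 21, which also held 4 of the 12 endothelial markers of that abundance (Kdr, Tek, Ptprb and Clec4g). Without values per library, which libraries set these SEs was not tested.

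**Figure D3:**
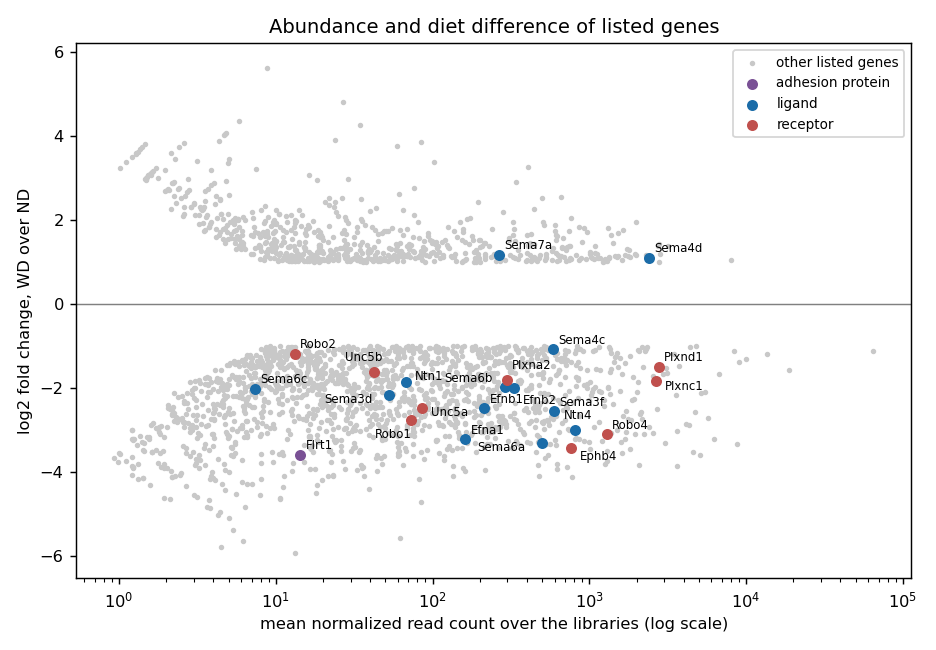
Log2 fold change, WD over ND (vertical axis), against mean normalized read count on a log scale (horizontal axis), for the 23 members (coloured by role) and all other listed genes (grey). The empty band around 0 is the table's own fold limit. Plxnd1, Plxnc1 and Sema4d lie at the right, at mean counts from 2407 to 2769, and Sema6c at the left at 7.38.

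**Figure D4:**
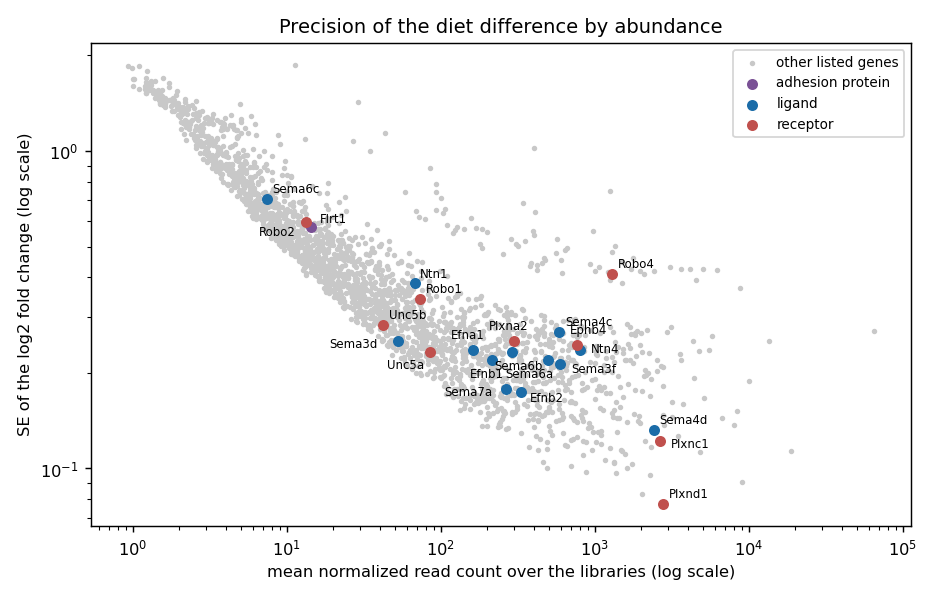
SE of the log2 fold change (vertical axis, log scale) against mean normalized read count (horizontal axis, log scale) for the 23 members and all other listed genes. Plxnd1 lies lowest at 0.077, and Robo4 lies with a separate set of abundant genes at 0.41.

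Partner genes of guidance signalling, taken from lists that hold no member, were also called lower in more cases than higher. These lists were chosen with earlier results of these data known, so their share is no independent support for that of the members. Of 57 genes 16 fell (28.1%), 3 rose (5.26%) and 38 were not listed, beside the same 8.35% and 3.0% of tested genes. Both neuropilins fell: Nrp1 (mean count 1896, -1.75 ± 0.14) and Nrp2 (mean count 1573, -1.30 ± 0.11) are the co-receptors of class 3 semaphorins, with values from the authors' deposited table. Kdr and Flt4, receptors of VEGF that can pair with neuropilins, stood at -3.59 ± 0.42 and -2.93 ± 0.42 in the authors' deposited table, and Kdr is also in the endothelial marker list. Latrophilins, partners of Flrt proteins, were split in the authors' deposited table: Adgrl1 (-2.24 ± 0.26) and Adgrl2 (-2.31 ± 0.21) fell, and Adgrl3 rose (1.51 ± 0.36) at a mean count of 27.1. Adgrl4, an endothelial relative of the latrophilins, stood at -3.00 ± 0.45 and was also lower in the authors' deposited table. Dcc and Neo1, the netrin receptors outside the Unc5 family, and the beta-1 integrin gene Itgb1 were not listed. Of 36 intracellular effectors 7 fell, 2 rose and 27 were not listed. The lower effectors included Arhgef12, which couples to B-type plexins (-1.39 ± 0.12), Dpysl3, of the collapsin response mediator family (-1.85 ± 0.18), Farp1 (-2.03 ± 0.24) and Srgap1, which acts downstream of Robo (-2.30 ± 0.28), in the authors' deposited table. Mical2 (-1.19 ± 0.17) and Mical3 (-1.40 ± 0.24), actin-oxidising enzymes that act after plexins, fell in the authors' deposited table, as did Kalrn. The higher effectors were Srgap3 (1.04 ± 0.20) and Enah (1.0 ± 0.38) in the authors' deposited table. Vegfc (-1.53 ± 0.35) and the proteoglycan gene Gpc1 (-1.15 ± 0.27) were the lower genes of the 6 in the remaining partner list in the authors' deposited table.

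Markers of other cell types moved in the same comparison. All 16 endothelial markers fell, with log2 fold changes from -4.12 (Cldn5) to -1.49 (Lyve1) and a median of -3.19 in the authors' deposited table. Of arterial markers 4 of 7 fell in the authors' deposited table, from -4.11 (Sox17) to -1.63 (Gja5, at a mean count of 8.85). Sox17 is also counted among the 16 endothelial markers. Of venous and lymphatic markers 3 of 6 fell, from -3.27 to -1.02, while Pdpn did not pass, in the authors' deposited table. Stellate cell and fibroblast markers fell in 5 of 10 cases, from -2.19 to -1.18 in the authors' deposited table, with Col1a1, Col1a2 and Col3a1 not listed. In the direction of Sema4d and Sema7a, 5 of 7 T and NK cell markers (1.20 to 1.66), 4 of 6 dendritic cell markers (1.29 to 1.80), 4 of 4 monocyte markers (1.44 to 2.55), 2 of 4 B cell markers (1.0 and 1.17) and 3 of 4 mast cell markers (3.38 to 3.85) rose in the authors' deposited table. The dendritic cell marker Zbtb46 (-1.13) and the mast cell marker Kit (-1.74) fell in the authors' deposited table. Hepatocyte markers Ass1 (1.19) and Cyp3a11 (3.91) rose in the authors' deposited table, while Alb and 3 others were not listed. None of 9 macrophage markers, among them Adgre1, Clec4f and Csf1r, and none of 6 neuron and glia, 5 cholangiocyte or 4 neutrophil markers was listed, so the labelled cell type could not be checked against levels.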

How the data were processed

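RNA of 8 libraries, 4 per diet by the diet label, had been sequenced after oligo(dT) enrichment, per the labels' protocols. Per the submitters' processing notes the build was mm10 and the tools included the aligners HISAT2 and STAR, the counter featureCounts and the packages DESeq and edgeR, with no version or order given. The table deposited by the authors gives, per the file headers, a mean normalized count (signal), the log2 fold change with its SE, the test score, and p-values with adjusted p-values; GO terms carry a fold enrichment ratio and Benjamini p-values made by the authors. Listed genes had p below 0.05 (largest 0.04995) and a log2 fold change above 1 in size (smallest 1.00011). No model was refitted, and depth per library is unknown. P-values weigh the diet difference against the spread between these libraries, and that spread may be partly technical. The number of tested genes is the whole number that best makes its product with p over adjusted p whole (within 0.02, ranks under 1000); 96.1% were whole, and the step returned 15000 on a simulated table of 15000 genes. Intervals are 95% normal intervals from the SE. Positions and exon lengths come from GENCODE M21 (mm10), where all 23 member IDs carried the same symbol; the authors' annotation is not given in the sources used here. Python 3.11.15 and pandas 2.3.3 were used. The members, gene lists, pairs and motifs were chosen with earlier results of these data known. All 23 members are named, and of partner lists the 6 genes with the smallest p plus some chosen after their values were seen; marker lists are given as counts and ranges.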

Additional observations from a re-analysis of the deposited data

How the results depend on the processing

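The 20 lower members remained between 18 and 21 under every alternative limit tried: 19 at an adjusted p below 0.01 and at a mean count of at least 10 (without Sema6c), 21 at an unadjusted p below 0.05 (with Robo2), 18 with Bonferroni over 17531 genes and 18 with a 95% interval wholly beyond 2-fold (without Sema4c and Sema6c in each case). The 2 higher members became 0 when the 95% interval had to lie wholly beyond 2-fold, since that rule asks for more than the deposited limit; they stayed 2 under the other alternatives. Restriction to the 71 fixed family genes could change neither count, as all 23 members are among them. Every listed gene has an unadjusted p below 0.05, so that limit had to return all 21 members with a negative fold change. No alternative could give more than 21. Leaving out each replicate, another normalization and another count model were not run, because the table holds no value per library. Members under a mean count of 20 (Flrt1, Robo2 and Sema6c) have SEs of at least 0.58, which limits what can be said of their size. A gene beyond the table's limits has no value here.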

Other observations

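Some members have another gene of their family nearby. Within 1000 kb on the same chromosome, Efna1 had Efna3 and Efna4, Sema3f had Sema3b, Sema3d had Sema3a (536 kb away) and Robo4 had Robo3, none of which was in the authors' deposited table. Robo1 and Robo2, 846 kb apart, were both listed in the authors' deposited table, the former at a log2 fold change of -2.76 and the latter at -1.19, and only Robo1 was called. Of all 71 family genes 48 were not listed, a share close to that among these neighbours.

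Of 373 GO terms in the authors' enrichment of genes with a positive fold change, 13 held Sema4d or Sema7a, and 6 of these had a Benjamini p below 0.05 in the authors' deposited table. Among the 6, Sema7a was counted under integrin-mediated signaling pathway (7 genes, 5.58-fold, Benjamini p 0.0333) and Sema4d under positive regulation of GTPase activity (14 genes, 4.14-fold, Benjamini p 0.00150) in the authors' deposited table. Of the 6 genes under axon guidance, Runx3 (1.23 ± 0.19) and Nr4a3 (1.10 ± 0.22), which are transcription factor genes, were called higher besides Sema4d, Sema7a and Enah, and Dscaml1 had an adjusted p of 0.115 in the authors' deposited table.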
